A study of Rattus norvegicus with 16 samples.

Results

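The genes described here are 49 genes of mitosis and cytokinesis: the cyclins and kinases that drive entry into mitosis, and parts of the spindle, the kinetochore, condensin and the machinery that separates daughter cells. A probe belongs to a member when its gene name in the scanner output equals that of the member. The rule uses no signal, but the list was drawn up with earlier results of these data known. Of the 49, 48 had a probe, on 75 of the 45598 probes of the array, and the condensin subunit Ncaph had none. A total of 40 passed the filter on dim probes and were tested among 16024 genes.

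The samples were kidney cortex of male Jcl:SD (Sprague-Dawley) rats, wild-type or heterozygous for BRCA1 (BRCA1+/-), a gene of homologous recombination repair. Ferric nitrilotriacetate (Fe-NTA) is a chelate of iron and injures the proximal tubule through oxidative damage, and the series set the 2 genotypes side by side during subacute injury. For wild-type and BRCA1+/- rats alike there were 2 untreated samples, 3 given Fe-NTA for 1 week and 3 given it for 3 weeks, 16 in all, each on its own single-colour Agilent array. Injections were intraperitoneal and began at 4 weeks of age, at 5 mg iron/kg for the opening doses, 7 mg iron/kg for the rest of the first week and 10 mg iron/kg in the later weeks, 5 times a week, with tissue collected 48 h after the final injection. For the untreated rats neither age nor vehicle is given, so age and treatment cannot be told apart, nor can time and dose between 1 and 3 weeks. The genotype label gives no tissue-specific driver for the BRCA1 allele, and the labels do not say whether replicates were separate animals, so p-values measure the spread between these samples.

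Entry into mitosis depends on cyclin B bound to the kinase Cdk1, with the kinases Plk1, Aurora A and Aurora B acting on centrosomes, spindle and chromosomes. Kinetochores couple chromosomes to microtubules, the spindle checkpoint holds back the anaphase-promoting complex until all are attached, and Ect2, Racgap1 and anillin then build the contractile ring. Most of these transcripts are made in G2 and M phase of cycling cells and are scarce in resting tissue. The adult renal tubule is largely quiescent and re-enters the cycle after injury.

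Each level is a log2 signal scaled by subtracting the array's own 75th percentile, so 0 stands for a probe as bright as that percentile, and levels of different probes cannot be set against each other. Between 32.8% and 60.5% of all probes were well above background on an array, and arrays of 1 group differed: the wild-type 1-week arrays had 45.8%, 39.7% and 33.1%. Arrays of a group correlated at 0.905 to 0.981 (Pearson r over genes). Both slides held arrays of every group. Brca1 itself was well above background on 0 of 2 wild-type control arrays and 1 of 2 BRCA1+/- control arrays, so it gives no check of the genotype labels. A change is called at an adjusted p under 0.05 from limma, over all genes. Where no array of a group was well above background, the change is given as "at least N-fold" against the detection level of those arrays, or against the signal of the probe itself where that was higher.

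In untreated cortex 10 and 14 of the 48 were well above background on the wild-type arrays, and 26 and 17 on the BRCA1+/- arrays. After 1 week 46, 42 and 39 were detected in wild-type cortex and 42, 37 and 43 in BRCA1+/- cortex. After 3 weeks the numbers were 24, 31 and 41 in wild-type and 29, 25 and 35 in BRCA1+/- cortex. The arrays also differed in brightness, whose part in these numbers was not tested. The dimmest 1-week arrays, wild-type replicate 3 and BRCA1+/- replicate 3, had 33.1% and 37.4% of all probes above background and 39 and 43 of the members. BRCA1+/- control replicate 1 had 48.3% of all probes and 26 members, and the wild-type 3-week replicate 3, with 41 members, was the brightest array of all.

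**Figure D1:**
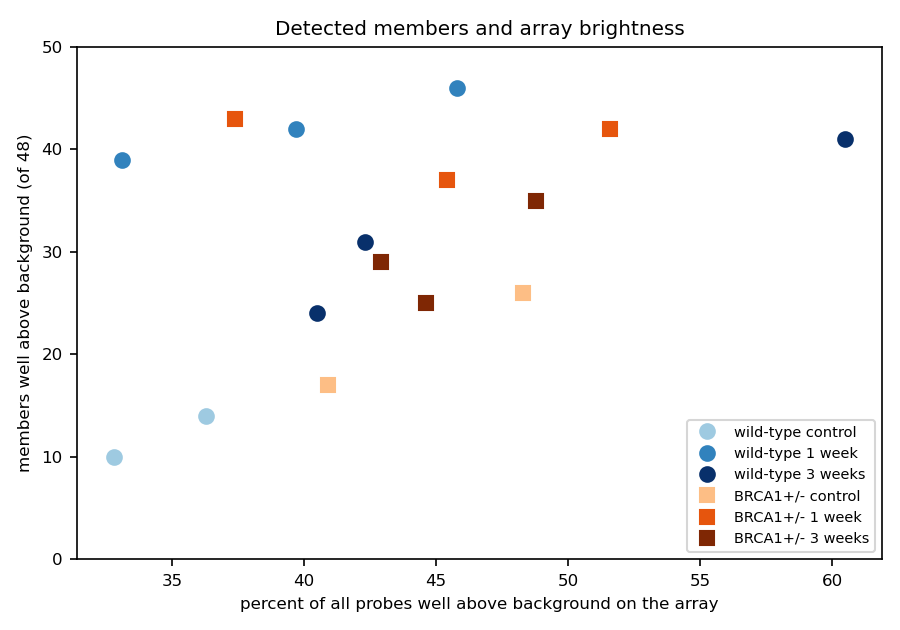
Number of the 48 members well above background (y axis) against the percentage of all probes well above background (x axis), 1 point per array. The 6 arrays of 1 week hold 37 to 46 members over a wide range of brightness, and the control arrays hold 10 to 26.

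After 1 week of Fe-NTA in wild-type rats 35 of the 40 tested members rose and none fell, beside 12.8% of all genes that rose and 14.3% that fell, and in the same 35 every treated array lay above both controls, beside 20.2% of all genes. The 5 without a call were Cdc20, Cdc25c, Kif11, Cenpa and Smc4. In BRCA1+/- rats 26 members rose at 1 week and none fell, beside 4.27% of all genes that rose and 3.2% that fell, and 33 had treated arrays all above the controls, beside 21.2%. The median fitted log2 fold change of the 40 was 2.82 in wild-type and 2.12 in BRCA1+/- cortex, against -0.02 and -0.03 over all genes, and with the changes from undetected controls set at their bound it was 2.41 and 2.03. A member detected only in treated tissue had to differ from its controls to be tested at all, and 25 of the 35 wild-type and 11 of the 26 BRCA1+/- calls started from controls with no array above background. Members that passed the filter only through 1-week groups made up 14 of the wild-type and 10 of the BRCA1+/- calls. Of the 9 members that passed in every group, 5 rose in wild-type and 4 in BRCA1+/- cortex. In bulk cortex, more cells in mitosis and more RNA per cell cannot be told apart. With normexp background correction in place of the scanner's, 22 wild-type and 8 BRCA1+/- members rose. In wild-type cortex 10.6% of all genes were then called in either direction, in place of 27.1%, and the median log2 fold change of the 40 was 0.75. With each array left out in turn, 25 of the 35 wild-type calls were kept throughout, and Aurkb, Birc5, Cdkn3, Kif18a, Kif23, Mad2l1, Racgap1, Smc2, Ttk and Ube2c lost theirs without control replicate 1 or 2, Smc2 also without 1-week replicate 2. Of the 26 BRCA1+/- calls 9 were kept throughout, those of Cdk1, Ccna2, Plk1, Kif22, Prc1, Cenpk, Mki67, Ect2 and Anln, and the other 17 were lost without control replicate 1 or 2 or 1-week replicate 1 or 3.

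At 3 weeks the levels had come back towards the controls. In wild-type cortex 4 members stayed above the controls (Cdk1, Aurka, Foxm1 and Ect2), beside 8.71% of all genes that were higher, and in BRCA1+/- cortex 2 did (Prc1 and Ect2), beside 9.37%. No member was called lower, beside 5.51% and 6.52% of all genes. Leaving out wild-type control replicate 1 or 2, or 3-week replicate 2 or 3, brought the wild-type count from 4 to 1, 0, 0 and 1, and leaving out control replicate 1 or 3-week replicate 1 brought the BRCA1+/- count from 2 to 1. Every 3-week call named here, in either genotype, was lost without at least 1 of the arrays. The member called without wild-type control replicate 1 was none of the 4 named. Under normexp no member was called at 3 weeks in either genotype, and the wild-type estimates of Aurka and Foxm1 were -0.0138 and -0.08. Treated arrays lay wholly above the controls in 16 wild-type members, beside 28.2% of all genes. They lay wholly below in 2, Kif18a and Smc4 (by its brighter probe, described below), beside 28.9%. Those of BRCA1+/- cortex lay above in 19, beside 32.1%, and below in 6, beside 28.9%. The median log2 fold change was 0.48 and 0.63. The comparisons of 1 and 3 weeks with the controls share the same 2 control arrays in each genotype. The 1-week mean was the highest of the 3 conditions in 38 of 40 members in wild-type and 36 in BRCA1+/- cortex, beside 32.4% and 20% of all genes, and the order control, 3 weeks, 1 week from low to high held in 29 and 27, beside 21.2% and 11.8%. A member that passed the filter only through 1-week groups, as 14 of the 40 did, was bound to be high there.

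**Figure D2:**
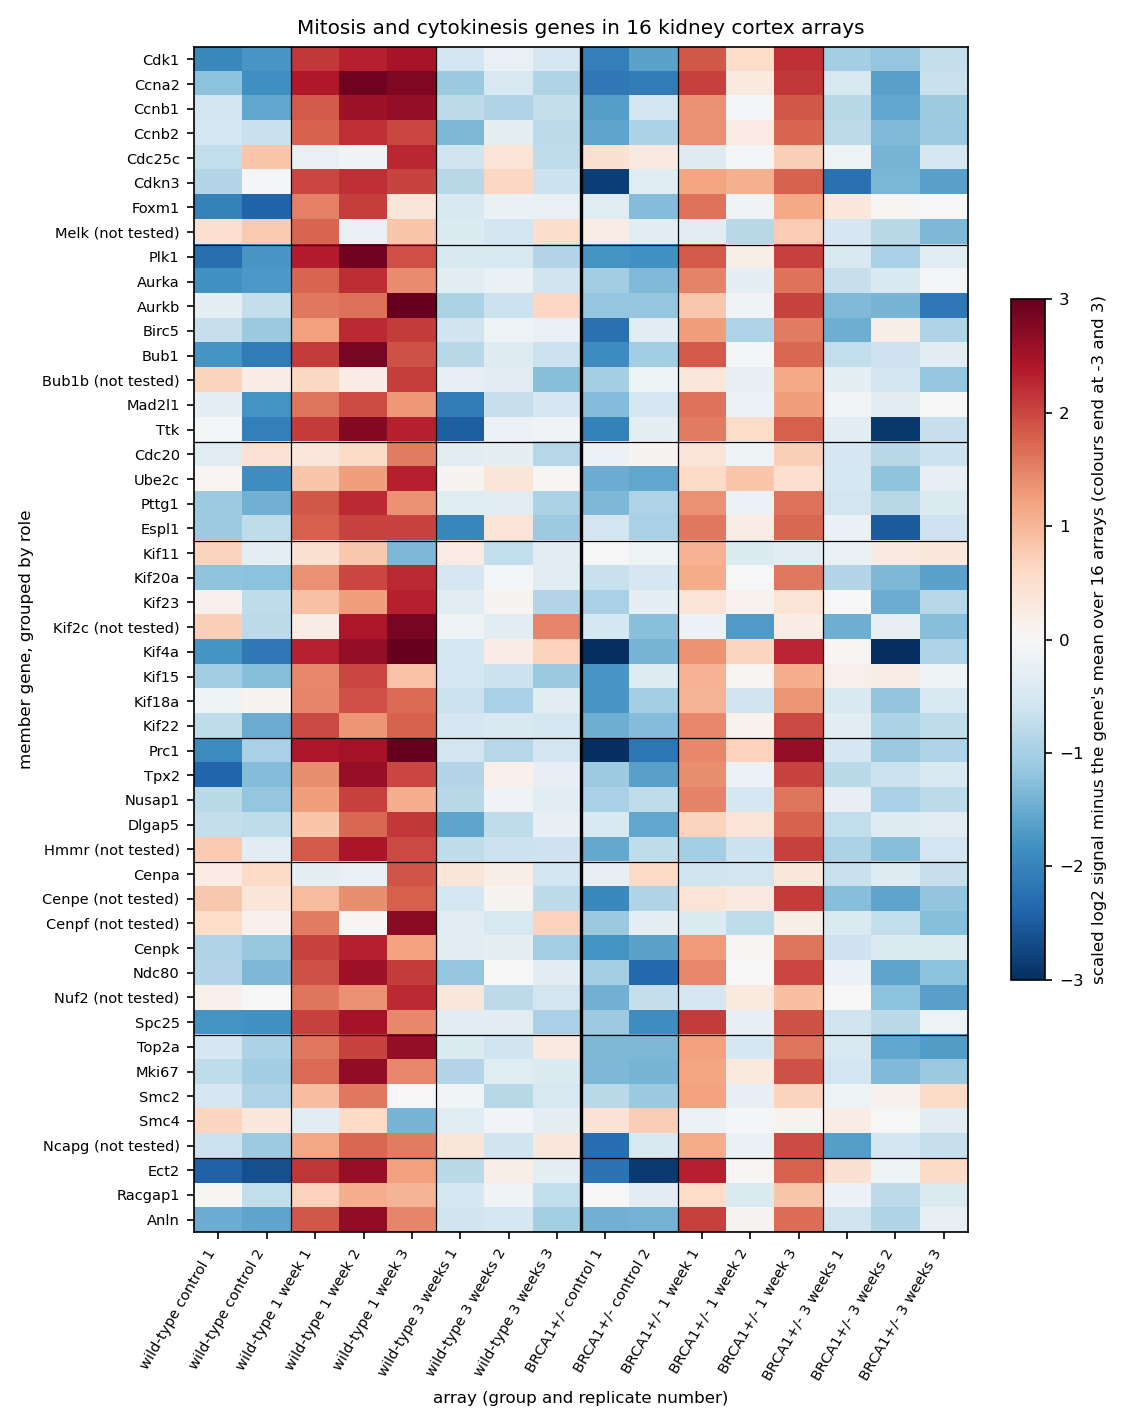
Scaled log2 signal of the 48 members minus each gene's mean over the 16 arrays (colour, ending at -3 and 3), with genes grouped by role on the y axis and arrays on the x axis. The 1-week columns are red for most genes in both genotypes, BRCA1+/- replicate 2 is paler than the other 1-week arrays, and the Kif11, Cenpa and Smc4 lines lack the pattern.

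Among the cyclins and their partners, 6 of 7 tested rose at 1 week in wild-type and 5 in BRCA1+/- cortex. Cdk1 is the kinase whose activity defines M phase. Levels of Cdk1 were -2.07 and -1.90 in wild-type controls, 1.99, 2.18 and 2.33 at 1 week and -0.72, -0.37 and -0.66 at 3 weeks. Cdk1 gave -2.2 and -1.75 in untreated BRCA1+/- cortex, 1.72, 0.40 and 2.04 at 1 week and -1.17, -1.31 and -0.85 at 3 weeks. All 1-week arrays were above all 3-week arrays, and these above all controls, in both genotypes. At 1 week Cdk1 was at least 13.9-fold higher (adjusted p = 5.78e-06) in wild-type, and rose by 3.36 ± 0.38 on the log2 scale (adjusted p = 0.000169) in BRCA1+/- cortex. It was still at least 2.08-fold higher (adjusted p = 0.0229) in wild-type at 3 weeks, and the BRCA1+/- estimate there was 0.87 ± 0.38 on the log2 scale (adjusted p = 0.125).

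Ccna2 encodes cyclin A2, which acts in S phase and early mitosis. For Ccna2 the wild-type controls read -2.33 and -2.93, the 1-week arrays 1.30, 1.82 and 1.70 and the 3-week arrays -2.21, -1.58 and -2.01. Levels of Ccna2 were -3.25 and -3.21 in BRCA1+/- controls, 0.96, -0.80 and 1.01 at 1 week and -1.59, -2.73 and -1.78 at 3 weeks. Its arrays kept the same order as those of Cdk1, without overlap between the 3 conditions of a genotype. At 1 week it was at least 9.46-fold higher (adjusted p = 2.69e-05) in wild-type and at least 9.14-fold higher (adjusted p = 0.000533) in BRCA1+/- cortex. Ccnb1 encodes cyclin B1, the activator of Cdk1 at mitotic entry. Ccnb1 gave -2.17 and -3.17 in untreated wild-type cortex, 0.24, 0.93 and 1.05 at 1 week and -2.39, -2.50 and -2.30 at 3 weeks. For Ccnb1 the BRCA1+/- controls read -3.25 and -2.15, the 1-week arrays -0.23, -1.65 and 0.25 and the 3-week arrays -2.44, -3.15 and -2.66. The 1-week arrays stood apart and the 3-week arrays lay among the controls in both genotypes. At 1 week Ccnb1 was at least 5.18-fold higher (adjusted p = 0.000179) in wild-type and at least 4.46-fold higher (adjusted p = 0.017) in BRCA1+/- cortex. Ccnb2, a second B-type cyclin, followed the same course. Levels of Ccnb2 were -1.33 and -1.47 in wild-type controls, 0.97, 1.37 and 1.21 at 1 week and -2.16, -1.08 and -1.60 at 3 weeks. Ccnb2 gave -2.39 and -1.75 in untreated BRCA1+/- cortex, 0.56, -0.57 and 0.93 at 1 week and -1.59, -2.13 and -1.89 at 3 weeks. Again the 3-week arrays overlapped the controls and the 1-week arrays did not. The 1-week rise was 2.58 ± 0.40 on the log2 scale (adjusted p = 0.000311) in wild-type and 2.38 ± 0.40 on the log2 scale (adjusted p = 0.00279) in BRCA1+/- cortex.

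Foxm1 is a transcription factor that drives many G2/M genes. For Foxm1 the wild-type controls read -3.12 and -3.49, the 1-week arrays 0.42, 0.97 and -0.74 and the 3-week arrays -1.56, -1.28 and -1.32. Levels of Foxm1 were -1.45 and -2.39 in BRCA1+/- controls, 0.53, -1.21 and 0.05 at 1 week and -0.78, -1.06 and -1.08 at 3 weeks. Treated arrays were above the controls at both times in both genotypes, with 1-week and 3-week arrays overlapping in BRCA1+/- cortex only. Wild-type levels were at least 3.61-fold higher (adjusted p = 0.000145) at 1 week and at least 1.19-fold higher (adjusted p = 0.0195) at 3 weeks. The BRCA1+/- estimates, 1.71 ± 0.50 on the log2 scale (adjusted p = 0.0505) at 1 week and 0.94 ± 0.50 on the log2 scale (adjusted p = 0.196) at 3 weeks, missed the threshold. Cdkn3 encodes a phosphatase that acts on cyclin-dependent kinases. Cdkn3 gave -2.94 and -2.11 in untreated wild-type cortex, -0.05, 0.13 and -0.04 at 1 week and -2.90, -1.44 and -2.71 at 3 weeks. For Cdkn3 the BRCA1+/- controls read -4.88 and -2.42, the 1-week arrays -0.87, -1.0 and -0.29 and the 3-week arrays -4.29, -3.44 and -3.68. At 3 weeks it overlapped the controls in both genotypes, and no BRCA1+/- array at 3 weeks detected it. At 1 week it was at least 3.13-fold higher (adjusted p = 0.00457) in wild-type and at least 4.33-fold higher (adjusted p = 0.0074) in BRCA1+/- cortex. Cdc25c, a phosphatase that activates Cdk1, did not follow by the probe tested. Its other probe was above background on 0 arrays, and the accession of neither was found in the RefSeq reference table. Levels of Cdc25c were -2.69 and -1.11 in wild-type controls, -2.17, -2.05 and 0.31 at 1 week and -2.54, -1.56 and -2.70 at 3 weeks. Cdc25c gave -1.49 and -1.69 in untreated BRCA1+/- cortex, -2.34, -1.98 and -1.24 at 1 week and -2.11, -3.35 and -2.47 at 3 weeks. Its 1-week arrays overlapped the controls in both genotypes, and its 3-week BRCA1+/- arrays were below them. The 1-week estimate was 0.59 ± 0.67 on the log2 scale (adjusted p = 0.562) in wild-type, and the 3-week estimate in BRCA1+/- cortex, the lowest of any member there, was -1.06 ± 0.67 on the log2 scale (adjusted p = 0.278).

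Genes expressed in G2 and M phase often carry a cell cycle genes homology region (CHR, TTTGAA or TTCGAA) near the start, bound by the DREAM and MuvB complexes, and CCAAT boxes bound by NF-Y. Cdk1, Ccnb2, Plk1 and Birc5 rose in wild-type cortex at 1 week, and Cdc20 had no call there. The promoters of these 5 members are shown as examples. Each runs from 250 bases before to 50 bases after the RefSeq transcription start, in GRCr8 (RefSeq), 5′ to 3′ on the strand of the gene. They are Cdk1 (chr20:19265043-19265342, plus strand), Ccnb2 (chr8:79981609-79981908, minus strand), Plk1 (chr1:186147408-186147707, plus strand), Cdc20 (chr5:137255750-137256049, minus strand) and Birc5 (chr10:103571896-103572195, plus strand). Capitals mark matches, on either strand, to either CHR form, to the CCAAT box, which reads ATTGG from the other strand, and to the E2F motif TTCGCGC.
Cdk1: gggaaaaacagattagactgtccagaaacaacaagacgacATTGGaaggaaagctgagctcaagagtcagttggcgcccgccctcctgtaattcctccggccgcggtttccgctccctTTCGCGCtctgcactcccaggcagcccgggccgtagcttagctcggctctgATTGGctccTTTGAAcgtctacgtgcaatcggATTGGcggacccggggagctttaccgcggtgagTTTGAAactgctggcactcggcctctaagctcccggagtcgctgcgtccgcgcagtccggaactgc
Ccnb2: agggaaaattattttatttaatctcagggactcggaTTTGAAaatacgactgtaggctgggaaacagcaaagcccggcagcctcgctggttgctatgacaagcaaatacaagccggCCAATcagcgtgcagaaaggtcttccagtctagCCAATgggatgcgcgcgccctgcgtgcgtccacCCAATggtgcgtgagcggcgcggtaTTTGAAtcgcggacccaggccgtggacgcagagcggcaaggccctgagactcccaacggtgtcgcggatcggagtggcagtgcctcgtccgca
Plk1: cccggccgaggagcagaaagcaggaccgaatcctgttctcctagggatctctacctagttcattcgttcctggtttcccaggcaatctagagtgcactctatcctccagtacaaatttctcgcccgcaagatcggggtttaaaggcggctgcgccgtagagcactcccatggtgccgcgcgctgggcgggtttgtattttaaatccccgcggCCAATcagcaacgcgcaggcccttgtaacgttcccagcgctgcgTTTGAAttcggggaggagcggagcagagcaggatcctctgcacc
Cdc20: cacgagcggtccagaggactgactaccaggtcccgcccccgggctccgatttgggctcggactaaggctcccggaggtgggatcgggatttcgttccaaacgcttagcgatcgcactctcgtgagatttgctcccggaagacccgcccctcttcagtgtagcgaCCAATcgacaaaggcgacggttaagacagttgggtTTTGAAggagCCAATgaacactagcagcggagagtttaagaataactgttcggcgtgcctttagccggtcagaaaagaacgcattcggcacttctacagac
Birc5: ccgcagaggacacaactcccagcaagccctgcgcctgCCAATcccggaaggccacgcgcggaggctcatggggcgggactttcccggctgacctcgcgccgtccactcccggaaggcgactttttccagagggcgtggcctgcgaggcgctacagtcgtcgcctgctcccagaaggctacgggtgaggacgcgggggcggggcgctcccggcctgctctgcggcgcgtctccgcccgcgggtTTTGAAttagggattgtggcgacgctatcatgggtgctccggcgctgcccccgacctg

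All 5 held TTTGAA on the strand of the gene, starting 72 and 16 bases before the start in Cdk1, 214 and 43 in Ccnb2, 51 in Cdc20 and 8 in Birc5, and at base 7 after it in Plk1. Cdk1 had 3 CCAAT matches on the other strand and the only TTCGCGC, Ccnb2 had 3 CCAAT matches on its own strand, Cdc20 had 2, and Plk1 and Birc5 had 1 each. No matches overlapped in these 5. Over the 42 members with a promoter in the RefSeq table, 31 (73.8%) held TTTGAA, beside 18.1% of all 27457 promoters and 12.2% of the 9769 promoters of genes tested here. CCAAT was in 31 (73.8%), beside 37.7% of all promoters, 2 or more copies in 22 (52.4%), beside 11.5%, and TTTGAA with CCAAT in 25 (59.5%), beside 4.92% of the promoters of tested genes. TTCGAA was in 2 members (4.76%, beside 1.77%) and TTCGCGC in 1 (2.38%, beside 1.58%). Of the 38 TTTGAA sites in members, 27 (71.1%) were on the strand of the gene, beside 51.4% of sites in all promoters, and 31 (81.6%) lay in the last 150 of the 300 bases, beside 40.6%. These are matches of letters and no measurement of binding.

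Of the mitotic kinases and spindle checkpoint genes, all 7 tested rose in wild-type cortex at 1 week and 4 in BRCA1+/- cortex, and Bub1b, whose 2 probes were above background on 0 arrays, was not tested. Plk1, polo-like kinase 1, acts at mitotic entry, on centrosomes and at the kinetochore. For Plk1 the wild-type controls read -1.77 and -1.24, the 1-week arrays 2.87, 3.39 and 2.43 and the 3-week arrays 0.05, 0.03 and -0.37. Levels of Plk1 were -1.27 and -1.32 in BRCA1+/- controls, 2.35, 0.67 and 2.55 at 1 week and 0.04, -0.48 and 0.14 at 3 weeks. All 3-week arrays were above the controls and below all 1-week arrays in both genotypes. Plk1 rose at 1 week by 4.40 ± 0.46 on the log2 scale (adjusted p = 1.53e-05) in wild-type and by 3.15 ± 0.46 on the log2 scale (adjusted p = 0.000973) in BRCA1+/- cortex. The 3-week estimates, 1.41 ± 0.46 on the log2 scale (adjusted p = 0.0527) in wild-type and 1.2 ± 0.46 on the log2 scale (adjusted p = 0.0857) in BRCA1+/- cortex, missed the threshold. Bub1 is a checkpoint kinase at the kinetochore. Bub1 gave -2.62 and -2.96 in untreated wild-type cortex, 1.25, 2.0 and 1.06 at 1 week and -1.69, -1.24 and -1.5 at 3 weeks. For Bub1 the BRCA1+/- controls read -2.73 and -1.90, the 1-week arrays 0.99, -0.92 and 0.88 and the 3-week arrays -1.58, -1.48 and -1.17. The order control, 3 weeks, 1 week again held array by array in both genotypes. At 1 week Bub1 was at least 8.41-fold higher (adjusted p = 2.68e-05) in wild-type, and rose by 2.63 ± 0.48 on the log2 scale (adjusted p = 0.0042) in BRCA1+/- cortex.

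Aurkb (Aurora B) and Birc5 (survivin) are partners in the chromosomal passenger complex, which corrects attachments and guides cytokinesis. Levels of Aurkb were -3.19 and -3.63 in wild-type controls, -1.31, -1.26 and 0.29 at 1 week and -3.85, -3.55 and -2.28 at 3 weeks. Aurkb gave -4.08 and -4.06 in untreated BRCA1+/- cortex, -2.09, -3.01 and -0.87 at 1 week and -4.24, -4.29 and -5.04 at 3 weeks. Its wild-type 3-week arrays overlapped the controls, and the BRCA1+/- 3-week arrays were below theirs with none above background. Aurkb was at least 1.83-fold higher (adjusted p = 0.00454) at 1 week in wild-type and at least 1.80-fold higher (adjusted p = 0.0499) in BRCA1+/- cortex, a call kept in 6 of 18 alternatives. Birc5 had a 1-week mean of -1.83 in BRCA1+/- and -0.61 in wild-type cortex, a difference without a call. The arrays of the 2 genotypes overlapped, and BRCA1+/- replicate 2 was the lowest. For Birc5 the wild-type controls read -3.15 and -3.57, the 1-week arrays -1.23, -0.23 and -0.36 and the 3-week arrays -3.07, -2.62 and -2.69. Levels of Birc5 were -4.71 and -2.78 in BRCA1+/- controls, -1.2, -3.39 and -0.90 at 1 week and -3.92, -2.26 and -3.36 at 3 weeks. BRCA1+/- replicate 2 at 1 week lay among its controls and below the detection level of its array, and the other 1-week arrays did not lie among their controls. Birc5 was at least 2.04-fold higher (adjusted p = 0.00815) at 1 week in wild-type, while the BRCA1+/- difference, at least 2.01-fold higher (adjusted p = 0.105), missed the threshold.

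Aurka, the spindle-pole kinase Aurora A, read -2.43 and -2.33 in wild-type controls, 1.14, 1.63 and 0.82 at 1 week and -0.91, -0.81 and -1.2 at 3 weeks, and -1.64 and -1.92, then 0.89, -0.86 and 1.02, then -1.30, -1.06 and -0.63 in the same groups of BRCA1+/- cortex. The wild-type arrays did not overlap between conditions, and Aurka was at least 7.11-fold higher (adjusted p = 5.94e-05) at 1 week and at least 1.58-fold higher (adjusted p = 0.0486) at 3 weeks there. Mad2l1, the checkpoint protein that inhibits Cdc20, read -2.23 and -3.73 in wild-type controls, -0.35, 0.02 and -0.65 at 1 week and -4.03, -2.63 and -2.44 at 3 weeks, and -3.25 and -2.44, then -0.32, -2.12 and -0.68, then -2.02, -2.29 and -1.92 in the same groups of BRCA1+/- cortex. Ttk, the checkpoint kinase Mps1, read -1.56 and -3.55 in wild-type controls, 0.60, 1.25 and 0.82 at 1 week and -3.98, -1.68 and -1.62 at 3 weeks, and -3.53 and -1.78, then 0.05, -0.96 and 0.29, then -1.85, -4.39 and -2.2 in the same groups of BRCA1+/- cortex. At 3 weeks both overlapped the wild-type controls, with replicate 1 below them. At 1 week Mad2l1 was at least 2.48-fold higher (adjusted p = 0.003) and Ttk at least 5.75-fold higher (adjusted p = 0.00728) in wild-type cortex. In BRCA1+/- cortex their 1-week arrays were above the controls, yet Mad2l1, 1.81 ± 0.57 on the log2 scale (adjusted p = 0.0677), and Ttk, at least 5.07-fold higher (adjusted p = 0.0926), were not called.

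**Figure D3:**
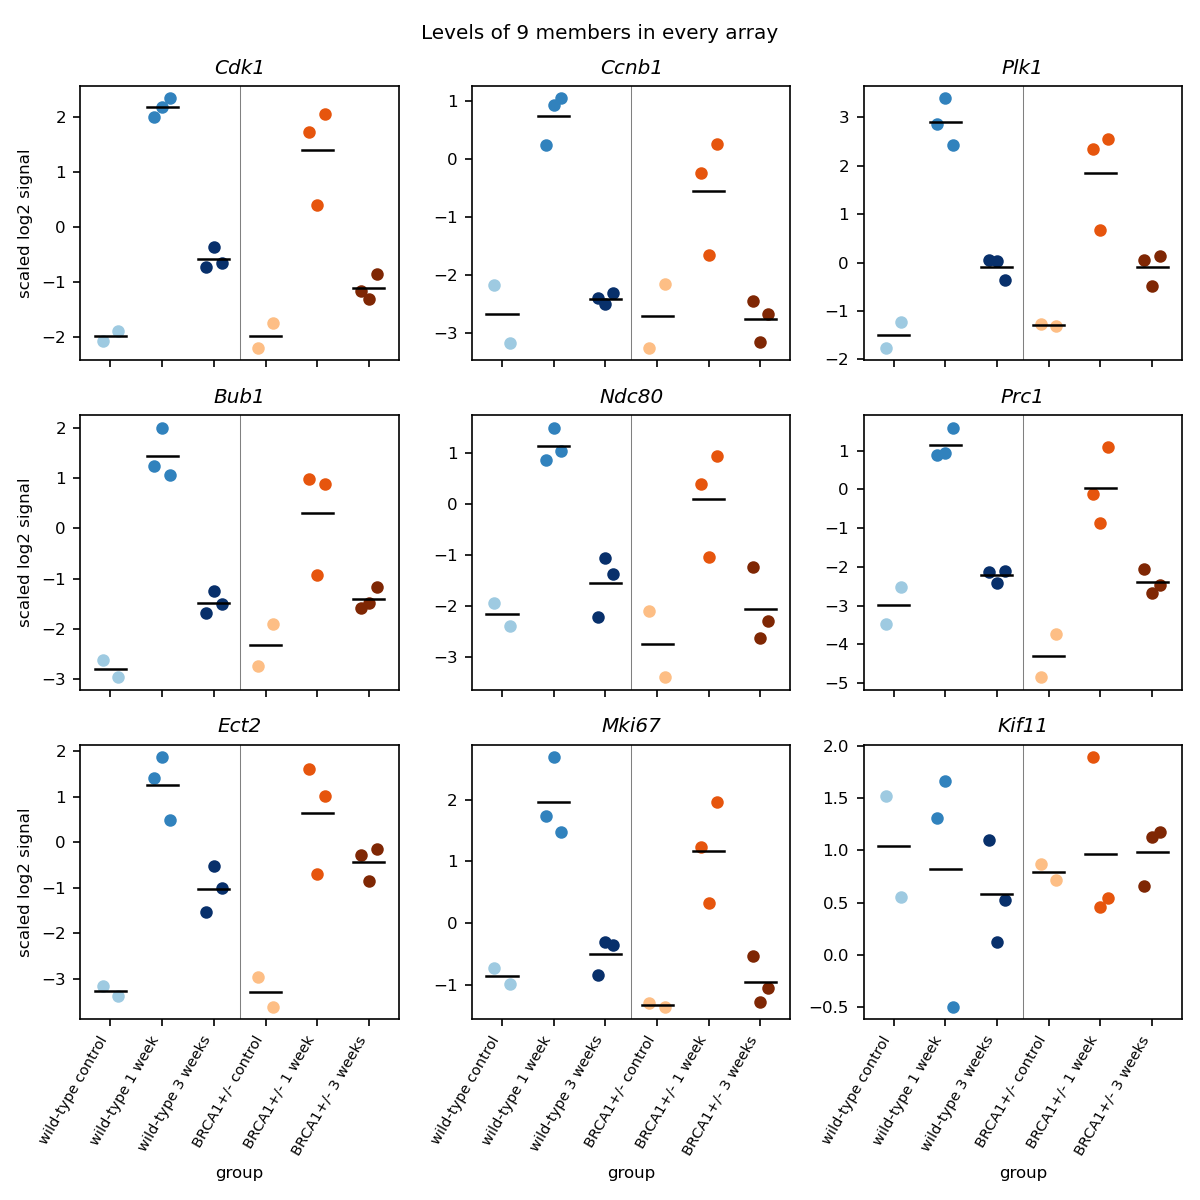
Scaled log2 signal (y axis) of 9 members in every array (points) of the 6 groups (x axis), with the group mean as a line and a separate y axis for each gene. For 8 of them the 1-week points lie highest in both genotypes, except a BRCA1+/- point of Ect2 that lies among the 3-week points, and Kif11 shows overlapping groups.

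Of the 4 genes of the anaphase machinery, 3 rose at 1 week in wild-type and 2 in BRCA1+/- cortex. Ube2c is the ubiquitin-conjugating enzyme of the anaphase-promoting complex. Ube2c gave -1.59 and -3.53 in untreated wild-type cortex, -0.83, -0.40 and 0.68 at 1 week and -1.57, -1.30 and -1.61 at 3 weeks. For Ube2c the BRCA1+/- controls read -3.14 and -3.20, the 1-week arrays -1.07, -0.82 and -1.15 and the 3-week arrays -2.18, -2.85 and -1.91. Its 1-week arrays were above all others of their genotype. At 1 week Ube2c was at least 2.73-fold higher (adjusted p = 0.00249) in wild-type and at least 3.33-fold higher (adjusted p = 0.0162) in BRCA1+/- cortex. Espl1 is separase, the protease that cuts cohesin. Levels of Espl1 were -3.45 and -3.12 in wild-type controls, -0.56, -0.32 and -0.32 at 1 week and -4.32, -1.96 and -3.45 at 3 weeks. Espl1 gave -2.90 and -3.32 in untreated BRCA1+/- cortex, -0.77, -2.14 and -0.62 at 1 week and -2.55, -4.85 and -2.97 at 3 weeks. The 3-week arrays ran from below the controls to above them in both genotypes. Espl1 was at least 2.35-fold higher (adjusted p = 0.00528) at 1 week in wild-type, and the BRCA1+/- difference, at least 2.74-fold higher (adjusted p = 0.0946), was not called. Pttg1, securin, the inhibitor of separase, read -0.06 and -0.42 in wild-type controls, 2.91, 3.26 and 2.40 at 1 week and 0.67, 0.70 and 0.09 at 3 weeks, and -0.32 and 0.10, then 2.40, 0.86 and 2.67, then 0.46, 0.20 and 0.60 in the same groups of BRCA1+/- cortex. Pttg1 rose at 1 week by 3.09 ± 0.44 on the log2 scale (adjusted p = 0.000148) in wild-type and by 2.09 ± 0.44 on the log2 scale (adjusted p = 0.0104) in BRCA1+/- cortex. Cdc20, the activator of the anaphase-promoting complex, read 0.03 and 0.81 in wild-type controls, 0.71, 0.94 and 1.92 at 1 week and 0.05, 0.10 and -0.50 at 3 weeks, and 0.19 and 0.45, then 0.75, 0.24 and 1.09, then -0.14, -0.45 and -0.28 in the same groups of BRCA1+/- cortex. Cdc20 was above background on all 16 arrays, its 1-week estimate was 0.77 ± 0.37 on the log2 scale (adjusted p = 0.144), and its 3-week arrays were all below the 1-week arrays.

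The kinesins, motors that move along microtubules, split: 6 of 7 tested rose at 1 week in wild-type cortex, 5 in BRCA1+/- cortex, and Kif11 in neither, while Kif2c, above background on 3 arrays, was not tested. Kif4a, a chromosome-bound motor that also works at the spindle midzone, had the largest fitted change of all members in wild-type cortex at 1 week. That rank rests on control signal below detection, and the bound of Kif4a was lower than those of Cdk1 and Ccna2. For Kif4a the wild-type controls read -3.37 and -3.76, the 1-week arrays 0.69, 1.02 and 1.41 and the 3-week arrays -2.13, -1.38 and -0.92. Levels of Kif4a were -4.94 and -3.0 in BRCA1+/- controls, -0.27, -0.96 and 0.69 at 1 week and -1.56, -4.70 and -2.53 at 3 weeks. The 1-week arrays were above all others of their genotype, and the 3-week BRCA1+/- arrays ran from the level of the controls to above it. At 1 week Kif4a was at least 6.39-fold higher (adjusted p = 0.000431) in wild-type and at least 6.32-fold higher (adjusted p = 0.00762) in BRCA1+/- cortex. Kif20a (MKLP2) carries the chromosomal passenger complex to the midzone. Kif20a gave -1.65 and -1.67 in untreated wild-type cortex, 0.92, 1.56 and 1.80 at 1 week and -0.96, -0.51 and -0.78 at 3 weeks. For Kif20a the BRCA1+/- controls read -1.12 and -0.94, the 1-week arrays 0.68, -0.44 and 1.14 and the 3-week arrays -1.33, -1.80 and -2.05. Wild-type 3-week arrays were above their controls and BRCA1+/- 3-week arrays below theirs. Kif20a rose at 1 week by 3.09 ± 0.40 on the log2 scale (adjusted p = 7.17e-05) in wild-type and by 1.49 ± 0.40 on the log2 scale (adjusted p = 0.0337) in BRCA1+/- cortex. Kif11 (Eg5) slides microtubules apart to separate the spindle poles. Levels of Kif11 were 1.52 and 0.56 in wild-type controls, 1.31, 1.67 and -0.49 at 1 week and 1.1, 0.12 and 0.52 at 3 weeks. Kif11 gave 0.87 and 0.72 in untreated BRCA1+/- cortex, 1.89, 0.46 and 0.55 at 1 week and 0.66, 1.13 and 1.18 at 3 weeks. Every group overlapped every other of its genotype, on a probe above background on all 16 arrays. Its 1-week estimates were -0.21 ± 0.57 on the log2 scale (adjusted p = 0.824) in wild-type and 0.17 ± 0.57 on the log2 scale (adjusted p = 0.899) in BRCA1+/- cortex.

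Kif23, MKLP1, a midzone motor of the centralspindlin complex, read -0.39 and -1.29 in wild-type controls, 0.35, 0.72 and 1.81 at 1 week and -0.86, -0.45 and -1.40 at 3 weeks, and -1.49 and -0.79, then -0.13, -0.43 and -0.11, then -0.52, -2.02 and -1.39 in the same groups of BRCA1+/- cortex. Kif15, a spindle motor that can stand in for Kif11, read -1.96 and -2.19 in wild-type controls, 0.53, 1.08 and -0.07 at 1 week and -1.45, -1.57 and -2.03 at 3 weeks, and -2.66 and -1.31, then 0.14, -0.85 and 0.17, then -0.76, -0.70 and -1.05 in the same groups of BRCA1+/- cortex. At 1 week Kif23 rose by 1.80 ± 0.48 on the log2 scale (adjusted p = 0.0115) and Kif15 was at least 4.43-fold higher (adjusted p = 0.000439) in wild-type cortex. Kif18a, which limits chromosome movement at metaphase, read -1.32 and -1.12 in wild-type controls, 0.27, 0.72 and 0.49 at 1 week and -1.85, -2.17 and -1.51 at 3 weeks, and -2.96 and -2.23, then -0.19, -1.80 and 0.13, then -1.65, -2.38 and -1.69 in the same groups of BRCA1+/- cortex. Kif22, a motor on chromosome arms, read -0.10 and -0.84 in wild-type controls, 2.64, 1.98 and 2.42 at 1 week and 0.15, 0.21 and 0.13 at 3 weeks, and -0.79 and -0.64, then 2.09, 0.77 and 2.65, then 0.31, -0.29 and -0.10 in the same groups of BRCA1+/- cortex. Kif18a went below its wild-type controls at 3 weeks, without a call, whereas Kif22 stayed above them, likewise without a call. At 1 week Kif18a rose by 1.71 ± 0.46 on the log2 scale (adjusted p = 0.0121) and Kif22 by 2.81 ± 0.43 on the log2 scale (adjusted p = 0.00024) in wild-type cortex. In BRCA1+/- cortex Kif15, Kif18a and Kif22 rose at 1 week and Kif23, 0.92 ± 0.48 on the log2 scale (adjusted p = 0.275), was not called.

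All 4 tested proteins of the spindle and its midzone rose at 1 week in wild-type cortex and 3 in BRCA1+/- cortex, and Hmmr, above background on 3 arrays, was not tested. Prc1 bundles antiparallel microtubules at the midzone and had the largest fitted change of all members in BRCA1+/- cortex at 1 week. That rank too rests on control signal below detection, and the bound of Prc1 was lower than those of Ect2 and Ccna2. For Prc1 the wild-type controls read -3.47 and -2.53, the 1-week arrays 0.88, 0.94 and 1.59 and the 3-week arrays -2.13, -2.41 and -2.11. Levels of Prc1 were -4.85 and -3.73 in BRCA1+/- controls, -0.12, -0.88 and 1.08 at 1 week and -2.06, -2.67 and -2.48 at 3 weeks. Control, 3-week and 1-week arrays did not overlap in either genotype. At 1 week Prc1 was at least 6.83-fold higher (adjusted p = 3.77e-05) in wild-type and at least 7.30-fold higher (adjusted p = 0.000169) in BRCA1+/- cortex. At 3 weeks the BRCA1+/- level was at least 1.35-fold higher (adjusted p = 0.0185), and the wild-type estimate, which had no bound above 1, missed the threshold (adjusted p = 0.313).

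Tpx2, which activates Aurora A on the spindle, read -3.33 and -2.25 in wild-type controls, 0.43, 1.65 and 1.05 at 1 week and -1.83, -0.81 and -1.2 at 3 weeks, and -2.05 and -2.58, then 0.42, -1.14 and 1.08, then -1.77, -1.61 and -1.41 in the same groups of BRCA1+/- cortex. Nusap1, a microtubule-bundling protein, read -1.23 and -1.57 in wild-type controls, 0.83, 1.63 and 0.67 at 1 week and -1.25, -0.52 and -0.77 at 3 weeks, and -1.40 and -1.18, then 1.06, -0.95 and 1.19, then -0.66, -1.40 and -1.19 in the same groups of BRCA1+/- cortex. Dlgap5, HURP, which stabilises kinetochore fibres, read -3.13 and -3.17 in wild-type controls, -1.57, -0.68 and -0.28 at 1 week and -4.0, -3.17 and -2.66 at 3 weeks, and -2.87 and -3.98, then -1.73, -2.03 and -0.65, then -3.15, -2.81 and -2.72 in the same groups of BRCA1+/- cortex. All 3 had 1-week arrays above the other wild-type arrays. At 1 week Tpx2 was at least 6.40-fold higher (adjusted p = 0.000154), Nusap1 at least 5.45-fold higher (adjusted p = 0.0027) and Dlgap5 at least 1.73-fold higher (adjusted p = 0.00279) in wild-type cortex. In BRCA1+/- cortex Tpx2 and Dlgap5 rose and Nusap1, 1.72 ± 0.51 on the log2 scale (adjusted p = 0.0557), was not called.

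Of the 7 centromere and kinetochore genes 4 were tested, and 3 of them rose at 1 week in both genotypes. Ndc80 is the microtubule-binding subunit of the outer kinetochore. Ndc80 gave -1.93 and -2.39 in untreated wild-type cortex, 0.86, 1.49 and 1.05 at 1 week and -2.21, -1.06 and -1.36 at 3 weeks. For Ndc80 the BRCA1+/- controls read -2.09 and -3.40, the 1-week arrays 0.39, -1.04 and 0.94 and the 3-week arrays -1.24, -2.63 and -2.30. The 1-week arrays were above all others, and the 3-week arrays overlapped the controls. At 1 week Ndc80 was at least 6.81-fold higher (adjusted p = 0.000618) in wild-type, and rose by 2.84 ± 0.57 on the log2 scale (adjusted p = 0.00762) in BRCA1+/- cortex. Spc25, a subunit of the same complex, read -2.47 and -2.51 in wild-type controls, 1.35, 1.80 and 0.76 at 1 week and -1.01, -1.03 and -1.65 at 3 weeks, and -1.78 and -2.55, then 1.40, -0.94 and 1.23, then -1.28, -1.5 and -0.83 in the same groups of BRCA1+/- cortex. Cenpk, of the inner kinetochore, read -1.12 and -1.35 in wild-type controls, 1.81, 2.12 and 0.99 at 1 week and -0.53, -0.47 and -1.24 at 3 weeks, and -2.01 and -1.82, then 1.06, -0.18 and 1.40, then -0.85, -0.62 and -0.62 in the same groups of BRCA1+/- cortex. Spc25 was at least 7.67-fold higher (adjusted p = 0.000173) and Cenpk rose by 2.87 ± 0.42 on the log2 scale (adjusted p = 0.000192) at 1 week in wild-type cortex. The other members of this group, Cenpe, Cenpf and Nuf2, were above background on 3, 1 and 1 arrays and were not tested.

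Cenpa, the centromeric histone H3 variant, was measured by 2 probes that did not move together. Levels of the brighter Cenpa probe were 3.55 and 3.88 in wild-type controls, 3.04, 3.07 and 5.18 at 1 week and 3.67, 3.49 and 2.72 at 3 weeks. The brighter Cenpa probe gave 3.05 and 3.86 in untreated BRCA1+/- cortex, 2.71, 2.75 and 3.64 at 1 week and 2.63, 2.91 and 2.6 at 3 weeks. Groups overlapped at 1 week in both genotypes. The 1-week estimate of this probe was 0.05 ± 0.54 on the log2 scale (adjusted p = 0.956) in wild-type cortex, and -0.42 ± 0.54 on the log2 scale (adjusted p = 0.705) in BRCA1+/- cortex. The other probe, whose accession RefSeq names Cenpa, was above background on 3 arrays, did not pass the filter, and had group means of -2.87, -0.99 and -3.62 in wild-type controls, 1-week and 3-week cortex. Its BRCA1+/- means were -3.73, -2.49 and -4.56, so it was highest at 1 week in both genotypes. It was not tested. The accession of the brighter probe was not found in the reference table.

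Of the chromosome structure genes, Top2a, Mki67 and Smc2 rose at 1 week in wild-type cortex, and Top2a and Mki67 in BRCA1+/- cortex. Mki67 encodes Ki-67, the coat protein of mitotic chromosomes and the usual proliferation marker. For Mki67 the wild-type controls read -0.73 and -1.0, the 1-week arrays 1.74, 2.69 and 1.48 and the 3-week arrays -0.85, -0.31 and -0.36. Levels of Mki67 were -1.30 and -1.36 in BRCA1+/- controls, 1.23, 0.33 and 1.96 at 1 week and -0.53, -1.29 and -1.06 at 3 weeks. Its probe was above background on all control arrays, so the change is measured on both sides, and the 1-week arrays were above all others. Mki67 rose at 1 week by 2.83 ± 0.43 on the log2 scale (adjusted p = 0.000252) in wild-type and by 2.51 ± 0.43 on the log2 scale (adjusted p = 0.00298) in BRCA1+/- cortex. Top2a is the topoisomerase that untangles sister chromatids. Top2a gave -3.19 and -3.64 in untreated wild-type cortex, -1.13, -0.66 and -0.06 at 1 week and -3.11, -3.29 and -2.43 at 3 weeks. For Top2a the BRCA1+/- controls read -4.05 and -4.03, the 1-week arrays -1.48, -3.22 and -1.1 and the 3-week arrays -3.15, -4.25 and -4.38. No BRCA1+/- array at 3 weeks detected it, and 2 of 3 did at 1 week. At 1 week Top2a was at least 2.03-fold higher (adjusted p = 0.00151) in wild-type and at least 1.87-fold higher (adjusted p = 0.0291) in BRCA1+/- cortex. Smc2, a condensin ATPase, was at least 2.36-fold higher (adjusted p = 0.021) at 1 week in wild-type cortex, and its BRCA1+/- estimate, 1.5 ± 0.45 on the log2 scale (adjusted p = 0.0581), missed the threshold. The condensin subunit Ncapg, above background on 6 arrays, was not tested.

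Smc4, the other condensin ATPase, was measured by 2 probes that moved in opposite directions. By the brighter probe, whose accession was not found in the reference table, it was the lowest member in 3 of the treatment comparisons. Levels of the brighter Smc4 probe were 10.26 and 9.93 in wild-type controls, 9.29, 10.22 and 8.22 at 1 week and 9.26, 9.55 and 9.35 at 3 weeks. The brighter Smc4 probe gave 10.06 and 10.36 in untreated BRCA1+/- cortex, 9.44, 9.56 and 9.72 at 1 week and 9.84, 9.63 and 9.32 at 3 weeks. Its wild-type 1-week arrays overlapped the controls, and its BRCA1+/- 1-week arrays and all 3-week arrays lay below theirs. The 1-week estimate was -0.85 ± 0.41 on the log2 scale (adjusted p = 0.144) in wild-type cortex. The other probe, whose accession RefSeq names Smc4, was above background on all 16 arrays. For the other Smc4 probe the wild-type controls read -0.99 and -0.84, the 1-week arrays 0.63, 0.97 and 0.44 and the 3-week arrays -0.69, -0.50 and -0.58. Levels of the other Smc4 probe were -1.05 and -1.23 in BRCA1+/- controls, 0.03, -0.18 and 0.20 at 1 week and -0.75, -0.97 and -0.77 at 3 weeks. Here every 1-week array was above every other array of its genotype. By this probe, put in place of the brighter one after the data were seen, Smc4 rose at 1 week by 1.59 ± 0.23 in wild-type (adjusted p = 0.000185) and by 1.16 ± 0.23 in BRCA1+/- cortex (adjusted p = 0.00787), and the members that rose numbered 36 and 27.

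The probes of Smc4 and Cenpa are shown because the call depends on which is read. Each has 60 bases, printed 5′ to 3′ as deposited.
Smc4, brighter probe: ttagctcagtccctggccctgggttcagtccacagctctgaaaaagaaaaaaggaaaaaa
Smc4, probe named by RefSeq: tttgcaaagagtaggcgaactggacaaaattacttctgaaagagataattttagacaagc
Cenpa, brighter probe: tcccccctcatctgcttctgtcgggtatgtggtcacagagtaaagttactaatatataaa
Cenpa, probe named by RefSeq: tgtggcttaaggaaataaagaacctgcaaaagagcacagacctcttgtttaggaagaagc

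The brighter Smc4 probe ends in an A-rich stretch. Of its 51 windows of 10 bases, 15 occurred over 100 times in the 27457 rat promoters, counting both strands, with a highest count of 354, whereas 0 windows of the other Smc4 probe did, with a highest count of 53. For Cenpa, 1 window of the brighter probe and 0 windows of the other passed 100. Whether such repeats bear on the signal was not tested. Among the 18 members with several probes, the wild-type 1-week change also differed between probes on the log2 scale. The differences were 3.95 for Foxm1, 3.35 for Cenpk, 3.21 for Mad2l1, 3.18 for Ndc80, 2.18 for Espl1 and 1.86 for Racgap1. Some of these probes were above background on 0 arrays. However, a Cenpk probe that passed the filter was above background on 10 arrays. It changed by -0.42 in wild-type and -0.77 in BRCA1+/- cortex at 1 week. By the mean of all probes of a gene, the BRCA1+/- call of Cenpk at 1 week was lost.

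**Figure D4:**
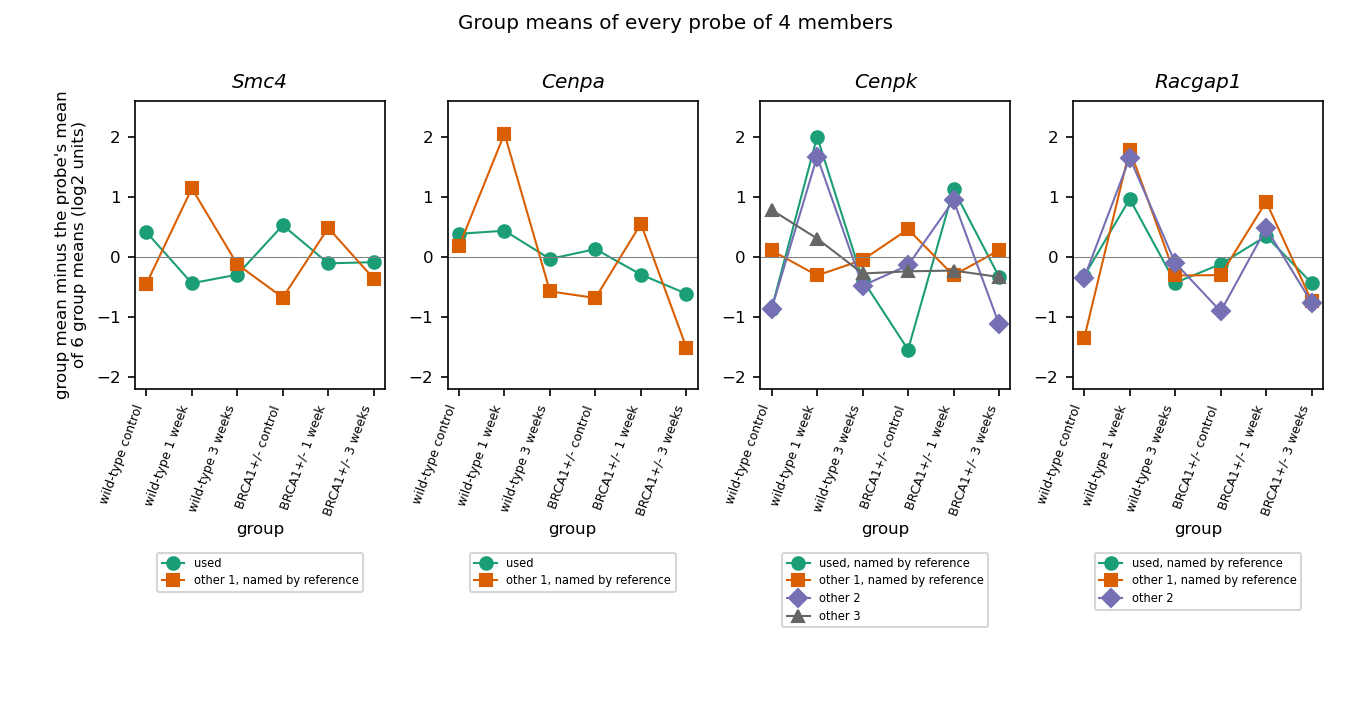
Group mean of each probe minus the mean of its 6 group means (y axis, log2 units) for every probe of 4 members, by group (x axis), with the probe used in the test marked. The probe named by RefSeq rises at 1 week for Smc4 and Cenpa and the brighter probe does not, while 2 of 4 Cenpk probes and all 3 Racgap1 probes peak at 1 week.

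All 3 cytokinesis genes rose at 1 week in wild-type cortex and 2 in BRCA1+/- cortex. Ect2 is the exchange factor that activates RhoA at the cleavage site, and the only member called higher than the controls at 3 weeks in both genotypes. Ect2 gave -3.16 and -3.38 in untreated wild-type cortex, 1.42, 1.87 and 0.49 at 1 week and -1.53, -0.53 and -1.01 at 3 weeks. For Ect2 the BRCA1+/- controls read -2.96 and -3.61, the 1-week arrays 1.59, -0.71 and 1.02 and the 3-week arrays -0.28, -0.86 and -0.15. All treated arrays were above all controls, which did not detect it, and in BRCA1+/- cortex replicate 2 at 1 week lay among the 3-week arrays. At 1 week Ect2 was at least 7.42-fold higher (adjusted p = 5.15e-05) in wild-type and at least 9.79-fold higher (adjusted p = 0.000849) in BRCA1+/- cortex. At 3 weeks it was at least 1.53-fold higher (adjusted p = 0.0155) in wild-type and at least 4.67-fold higher (adjusted p = 0.00396) in BRCA1+/- cortex. These 3-week calls were kept in 10 and 13 of 18 alternatives. The wild-type call was lost without either control array or without 3-week replicate 2, and the BRCA1+/- call without control replicate 2. Anln, anillin, the scaffold of the contractile ring, read -2.45 and -2.55 in wild-type controls, 0.90, 1.68 and 0.50 at 1 week and -1.57, -1.51 and -2.0 at 3 weeks, and -2.42 and -2.39, then 1.08, -0.90 and 0.70, then -1.58, -1.88 and -1.22 in the same groups of BRCA1+/- cortex. Racgap1, the partner of Kif23 in centralspindlin, read 0.42 and -0.36 in wild-type controls, 1.07, 1.45 and 1.40 at 1 week and -0.15, 0.26 and -0.37 at 3 weeks, and 0.39 and 0.06, then 0.93, -0.05 and 1.19, then 0.19, -0.41 and -0.05 in the same groups of BRCA1+/- cortex. Both had 1-week arrays above the other wild-type arrays. Anln was at least 6.33-fold higher (adjusted p = 9.58e-05) and Racgap1 rose by 1.28 ± 0.36 on the log2 scale (adjusted p = 0.0165) at 1 week in wild-type cortex, and Racgap1 was not called in BRCA1+/- cortex, 0.47 ± 0.36 on the log2 scale (adjusted p = 0.491).

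**Figure D5:**
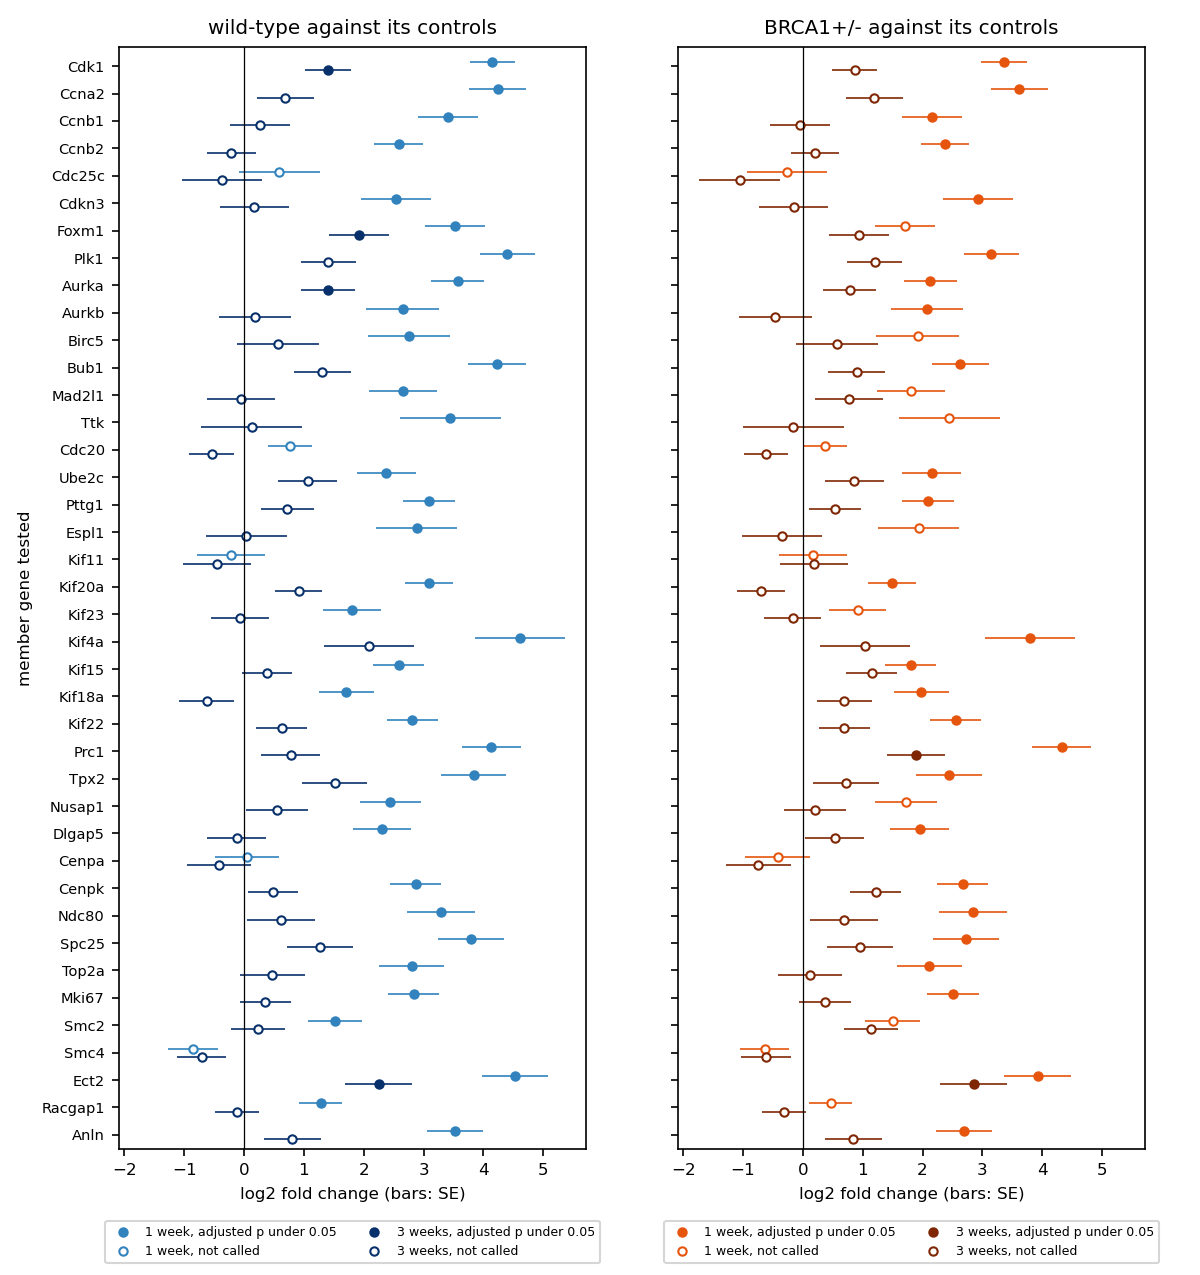
Fitted log2 fold change against the controls of the same genotype (x axis, bars are SE) at 1 week and 3 weeks for the 40 tested members (y axis, in order of role), with filled points at an adjusted p under 0.05. Estimates at 1 week lie to the right of those at 3 weeks for most members, and where the controls are not above background the estimate rests on substitute values.

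From 1 to 3 weeks 34 of the 40 members fell in wild-type cortex and none rose, beside 2.78% of all genes that fell and 5.54% that rose, and their median log2 change was -2.35. Each of these genes was detected on at least 1 array of both groups, so no value here rests on a bound. However, 14 of the 34, Ccna2, Prc1 and Ttk among them, passed the filter only through 1-week groups, so that a fall was built into their being tested. Of the 9 members above background on every array, 6 fell: Cdc20, Kif22, Cenpk, Mki67, Pttg1 and Racgap1. Without the filter 29 of 48 members were called, beside 1.36% of all genes. The largest fall was that of Ccna2, -3.54 ± 0.43 on the log2 scale (adjusted p = 0.000973), followed by Prc1, -3.35 ± 0.44 on the log2 scale (adjusted p = 0.00136), and Ttk, -3.32 ± 0.75 on the log2 scale (adjusted p = 0.0144). The 6 without a call were Cdc25c, Kif11, Cenpa, Ube2c, Smc2 and Smc4. In BRCA1+/- cortex 7 fell and none rose, beside 0.119% of all genes that fell and 0.187% that rose, and 3 of the 7 (Ccna2, Prc1 and Cdkn3) passed the filter only through 1-week groups. They were Cdk1, -2.49 ± 0.34 on the log2 scale (adjusted p = 0.00703), Ccna2, -2.42 ± 0.43 on the log2 scale (adjusted p = 0.0317), Ccnb2, -2.18 ± 0.36 on the log2 scale (adjusted p = 0.0208), Kif20a, -2.19 ± 0.35 on the log2 scale (adjusted p = 0.0184), Prc1, -2.43 ± 0.44 on the log2 scale (adjusted p = 0.0339), Mki67, -2.13 ± 0.39 on the log2 scale (adjusted p = 0.0339), and Cdkn3, at least 4.45-fold lower (adjusted p = 0.0213). The median change was -1.64, and 3-week arrays were wholly below the 1-week arrays in 24 members, beside 9.35% of all genes. These 7 made up 36.8% of the 19 genes that fell in BRCA1+/- cortex, and the 34 made up 7.64% of the 445 that fell in wild-type cortex. Without BRCA1+/- 1-week replicate 2 the BRCA1+/- count was 22, and without replicate 3 it was 1. A count of 1 was also found without replicate 2 or 3 of the BRCA1+/- 3-week group.

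No member differed between genotypes by the fit over all genes (limma), at an adjusted p under 0.05, in controls, at 1 week or at 3 weeks, and no interaction of genotype with treatment was called. The shares of all genes called were 0% in controls, 0.562% at 1 week, 0% at 3 weeks and 0% in both interactions. At an unadjusted p under 0.05 there were 3 members in controls, 14 at 1 week, 5 at 3 weeks, and 4 and 1 in the interactions at 1 and 3 weeks. The shares of all genes at that threshold were 4.61%, 12.6%, 5.82%, 7.6% and 4.76%. At 1 week the BRCA1+/- mean was below the wild-type mean in 38 of 40 members, while it was above it in 51.9% of all genes, with a median difference of -0.81 on the log2 scale against 0.02 over all genes, and the lowest adjusted p was 0.235. All BRCA1+/- arrays were below all wild-type arrays in 9 members, beside 4.54% of all genes, and above them in 0, beside 7.79%. Aurkb, Birc5 and Top2a passed the filter only through the wild-type 1-week group, so a lower BRCA1+/- level was favoured by their being tested. Cdc25c and Smc2 passed only through BRCA1+/- groups.

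Much of that difference went with a single array. BRCA1+/- replicate 2 at 1 week was the lowest of its group in 36 of 40 members, with a median of -1.46 against the mean of the other BRCA1+/- 1-week arrays, was below every wild-type 1-week array in 36, and was above both BRCA1+/- controls in 33. Its median level over the 48 members was -0.95, beside 0.09 and 0.42 on the other BRCA1+/- arrays and 0.56 to 1.0 on the wild-type arrays at 1 week. Without it the BRCA1+/- mean was below the wild-type mean in 32 members, with a median difference of -0.39, and no member was called. Without it 31 members rose at 1 week in BRCA1+/- cortex, in place of 26. Leaving out BRCA1+/- control replicate 1 gave 12, control replicate 2 gave 17, and 1-week replicate 3 gave 18.

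Within each slide the members as a whole moved the same way. The median log2 change at 1 week was 3.04 within slide 1 and 3.05 within slide 2 in wild-type cortex, and 2.65 and 1.88 in BRCA1+/- cortex. From 1 to 3 weeks it was -2.11 and -2.64 in wild-type, and -2.16 and -1.53 in BRCA1+/- cortex. The BRCA1+/- minus wild-type median at 1 week was -0.42 within slide 1 and -1.42 within slide 2, which holds the low replicate 2. Within slide 2, where each of these groups had 1 or 2 arrays, no member was called in any comparison.

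Other cell cycle lists show which neighbours of these genes moved with them. Of 50 further mitotic genes, chosen like the members for their role, 32 were tested, and 25 rose at 1 week in wild-type cortex and 15 in BRCA1+/- cortex, with none lower. Cdca3, which triggers destruction of the mitosis inhibitor Wee1, was at least 17.0-fold higher (adjusted p = 4.21e-05) in wild-type at 1 week. The spindle proteins Spag5 and Cep55, the latter of the abscission site, were at least 6.50-fold higher (adjusted p = 0.000113) and at least 5.33-fold higher (adjusted p = 0.000155), and the kinetochore protein Cenpw was at least 10.4-fold higher (adjusted p = 0.000118). Of the brightest genes of the list, stathmin (Stmn1), a microtubule destabiliser, rose by 1.06 ± 0.34 on the log2 scale (adjusted p = 0.0319) and the checkpoint protein Bub3 had an estimate of 0.10 ± 0.22 on the log2 scale (adjusted p = 0.768). From 1 to 3 weeks 21 fell in wild-type and 3 in BRCA1+/- cortex.

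Of 28 tested DNA replication genes 22 rose and 1 fell at 1 week in wild-type cortex, and 17 and 1 in BRCA1+/- cortex. The chromatin assembly subunit Chaf1b was at least 17.3-fold higher (adjusted p = 5.12e-06) in wild-type, the helicase subunits Mcm3 and Mcm5 rose by 4.65 ± 0.45 on the log2 scale (adjusted p = 9.85e-06) and 4.15 ± 0.38 on the log2 scale (adjusted p = 6.45e-06), and the ribonucleotide reductase subunit Rrm2 by 4.48 ± 0.52 on the log2 scale (adjusted p = 3.14e-05). The brightest of the list, Rrm1, the partner of Rrm2, and the ligase Lig1, rose by 1.08 ± 0.31 on the log2 scale (adjusted p = 0.0171) and 1.96 ± 0.37 on the log2 scale (adjusted p = 0.00141). At 3 weeks 5 replication genes were higher and 1 lower than the controls in wild-type and 7 and 1 in BRCA1+/- cortex, and from 1 to 3 weeks 19 fell in wild-type and 1, Rrm2, in BRCA1+/- cortex.

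G1 cyclins, E2F factors and subunits of the DREAM and MuvB complexes came next: 10 of 22 rose and 1 fell at 1 week in wild-type cortex, and 4 rose in BRCA1+/- cortex. Mybl2 (B-Myb), the MuvB partner that activates G2/M genes, was at least 4.22-fold higher (adjusted p = 9.59e-05) in wild-type and at least 4.22-fold higher (adjusted p = 0.00115) in BRCA1+/- cortex. Cyclin E1 (Ccne1) was at least 2.87-fold higher (adjusted p = 0.000153), E2f8 at least 2.59-fold higher (adjusted p = 0.00492) and Cdk6 at least 3.26-fold higher (adjusted p = 0.00011) in wild-type cortex. The brightest genes of the list, E2f5 with 0.29 ± 0.37 on the log2 scale (adjusted p = 0.609) and cyclin D1 (Ccnd1) with 0.24 ± 0.36 on the log2 scale (adjusted p = 0.67), were not called.

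Among inhibitors of the cycle and G2 checkpoint genes 3 of 14 rose and 1 fell in wild-type cortex at 1 week, and 1 rose in BRCA1+/- cortex. Cdkn1a (p21), an inhibitor of cyclin-dependent kinases, was at least 10.7-fold higher (adjusted p = 5.12e-06) in wild-type and rose by 3.77 ± 0.37 on the log2 scale (adjusted p = 7.19e-05) in BRCA1+/- cortex at 1 week. At 3 weeks, with the members back near the controls, Cdkn1a was still at least 16.5-fold higher (adjusted p = 4.12e-06) in wild-type and higher by 3.39 ± 0.37 on the log2 scale (adjusted p = 6.69e-05) in BRCA1+/- cortex, and from 1 to 3 weeks no gene of the list was called in either genotype. Btg2, an antiproliferative gene, rose by 1.85 ± 0.43 on the log2 scale (adjusted p = 0.00535) in wild-type, and cyclin G2 (Ccng2) fell, with a change of -1.03 ± 0.36 on the log2 scale (adjusted p = 0.0441). The brightest inhibitors, Cdkn1c with -0.79 ± 0.45 on the log2 scale (adjusted p = 0.218) and Cdkn1b with -0.36 ± 0.27 on the log2 scale (adjusted p = 0.363), were not called.

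Tubulins, cohesin, anaphase-promoting complex and dynein genes, which also serve outside mitosis, mostly had no call: 5 of 29 rose in wild-type and 3 in BRCA1+/- cortex at 1 week, and none fell. Those that rose were 4 tubulins, Tubb6 (at least 18.4-fold higher (adjusted p = 9.86e-07)), Tubb5 (2.98 ± 0.31 on the log2 scale (adjusted p = 1.66e-05)), Tubb2b (2.38 ± 0.46 on the log2 scale (adjusted p = 0.00152)) and Tuba1b (2.13 ± 0.34 on the log2 scale (adjusted p = 0.000345)), and the importin Kpna2 (1.09 ± 0.38 on the log2 scale (adjusted p = 0.0441)), while Tubb4b, the brightest, had 0.87 ± 0.34 on the log2 scale (adjusted p = 0.0741). The list medians at 1 week in wild-type cortex were 2.24 for other mitotic genes, 2.14 for replication, 0.85 for G1 and E2F genes, 0.05 for inhibitors and 0.37 for the shared genes, against 2.82 for the members and -0.02 over all genes.

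Markers of cell types moved at the same times, here as the summed signal of each list on a linear scale where 1 is the 75th percentile of an array. The 10 proximal tubule markers, all detected, as the tissue label implies, summed to 1848 to 2312 in wild-type controls, 137 to 319 at 1 week and 814 to 1110 at 3 weeks, and in BRCA1+/- cortex to 1448 to 2151, 388 to 785 and 548 to 1094. The 8 markers of injured proximal tubule summed to 11.1 to 13.4, 389 to 707 and 281 to 666 in wild-type, and to 11.5 to 17.3, 225 to 537 and 702 to 736 in BRCA1+/- cortex. At 1 week 9 of 10 tubule markers fell in wild-type and 3 in BRCA1+/- cortex.

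Lists of interstitial and blood cells were summed in the same way. The 8 macrophage markers summed to 7.89 to 10.1 in wild-type controls, 22.0 to 53.5 at 1 week and 39.2 to 60.6 at 3 weeks, and the 7 fibroblast and pericyte markers to 11.8 to 12.6, 32.9 to 68.4 and 30.4 to 71.5. In BRCA1+/- cortex the macrophage sums were 8.16 to 9.59, 21.4 to 33.2 and 36.4 to 69.8 and the fibroblast sums 15 to 18.2, 30.0 to 59.0 and 44.6 to 76.9. At 3 weeks 5 of 7 tested macrophage markers and 3 of 6 fibroblast markers were called higher than the controls in wild-type, and 6 and 4 in BRCA1+/- cortex. Lymphocyte sums were 23.7 to 25.3, 22.2 to 33.1 and 20.8 to 27.1 in wild-type and 23.0 to 33.2, 17.4 to 28.7 and 19.1 to 28.6 in BRCA1+/- cortex, with Cd2 and Cd8a above background on no array. Neutrophil and mast cell sums stayed between 0.585 and 1.64 over all groups, with S100a8, Cpa3 and Tpsab1 never detected. Erythroid sums were 19.1 to 113 and 105 to 139 in wild-type and BRCA1+/- controls and 3.75 to 29.6 in the treated groups.

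The remaining lists were the thick limb and distal tubule, collecting duct, podocyte and endothelium. At 1 week in wild-type cortex 0 of 5 thick limb and distal tubule markers rose and 1 fell, 1 of 6 collecting duct markers rose and 1 fell, 0 of 5 podocyte markers rose and 1 fell, and 0 of 6 endothelial markers rose and 2 fell. In which cells the mitotic transcripts lay, and what part any of these lists has in the results, was not tested.

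The 8 members that were not tested were detected on few arrays. Bub1b was above background on 0 arrays, Cenpf, Nuf2 and Melk on 1, Kif2c, Cenpe and Hmmr on 3 and Ncapg on 6. Their highest single values, from -1.94 for Melk to -0.04 for Kif2c, were all on 1-week arrays, and they had no test because no group had every array above background. Among the 40 that passed, 3 passed through 1 group only, the wild-type 1-week group, and 9 in every group. In each of the 1-week groups 37 passed, against 9 and 17 in the wild-type and BRCA1+/- controls.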

How the data were processed

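Total RNA of 16 rat kidney cortex samples was hybridised to single-colour arrays. Per the file headers the deposited scanner output holds spot intensity from Agilent Feature Extraction 10.7, background-subtracted by the authors and with substitute values for dim spots. A second deposited table from the authors, of log2 values, matched the log2 processed intensity minus each array's 75th percentile to within 0.01 for 98.9% or more of probes. No probe positions are printed, since their genome build was not stated.

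Control and outlier spots were left out, spots of a probe averaged, and the 75th percentile of the array subtracted after log2. A probe was kept if 1 group or more had it well above background on all its arrays, and a gene was its passing probe with the highest mean. All 16024 genes were fitted together in limma 3.58.1 (R 4.3.3, lmFit and eBayes, 1 mean per group, two-sided, Benjamini-Hochberg), with 10 residual and 4.87 prior degrees of freedom and a median residual SD of 0.395. The fit was tested on simulated data. A group with no array well above background gave a bound, the brighter group's mean against the detection level of the dim arrays or the probe's own signal there, whichever was higher. That mean also took in arrays of the brighter group that were not well above background, such as BRCA1+/- 1-week replicate 2 for Aurkb, Birc5 and Top2a. A bound of that kind is not strict. Alternatives changed the background correction, scaling, filter, floor, probe choice, array weights, groups fitted, slide and replicate blocks, and left out each array. The number of arrays limits the precision. Values in every array are given for 16 core members, those with the largest and smallest change and those called between times. From each other list the genes named are the 2 brightest and at most 4 called. The lists were other mitotic genes, DNA replication, G1 and E2F genes, inhibitors, shared genes and 11 marker lists. Promoters came from the RefSeq table. Members and lists were chosen with earlier results of these data known. Results for 2 genes of these lists are not reported here.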

Additional observations from a re-analysis of the deposited data

Results flagged for a closer look

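Kif20a, the kinesin that carries the chromosomal passenger complex to the spindle midzone, stood apart at 3 weeks because the genotypes moved in opposite directions against their own controls. All 3 wild-type arrays were above the wild-type controls, by 0.91 on the log2 scale, and all 3 BRCA1+/- arrays were below theirs, by -0.70. The difference between genotypes, tested as an interaction in limma, was -1.61 ± 0.56 (SE), with an adjusted p of 0.977 over all genes and an unadjusted p of 0.0116, so it did not pass the correction. Of the 40 members, Kif20a was the only one with an unadjusted p under 0.05 in this interaction, beside 4.76% of all genes. It was picked out by the lack of overlap in these same arrays, so that p is no separate support.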

How the results depend on the processing

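In the genotype comparisons and the interactions no member was called under any setting run. Of 108 calls of a member in a treatment or time comparison, followed over the settings, 1560 values kept direction and call, 423 lost the call, and 2 changed sign: Aurka at -0.0138 and Foxm1 at -0.08 in wild-type cortex at 3 weeks under normexp background correction. The cause was not tested. The number of members changed at 1 week in wild-type cortex, 35, was 22 under normexp and 0 within slide 2, and 26 to 35 leaving out 1 array. In BRCA1+/- cortex, 26 became 8 under normexp, 10 and 0 within slides 1 and 2, and 12 to 31 leaving out 1 array. At 3 weeks the 4 wild-type calls became 0 under normexp, without the filter, with dim values set to the detection floor and within either slide, 11 when only the compared groups were fitted or with array weights (beside 23.1% and 34.8% of all genes), and 0 to 3 leaving out 1 array. The 2 BRCA1+/- calls became 0 under normexp, with dim values at the limit and within either slide, 1 under quantile normalization, without the filter and by the mean of all probes, 6 with only the compared groups or array weights (beside 24.3% and 38.7%), and 1 to 2 leaving out 1 array. Between 1 and 3 weeks the 34 wild-type calls became 16 and 0 within slides 1 and 2 and 24 to 34 leaving out 1 array. The 7 BRCA1+/- calls became 1 under normexp, without the filter and with only the compared groups, 3 under quantile normalization, 4 with dim values at the limit, 0 within either slide, 19 with array weights (beside 4.78%) and 1 to 22 leaving out 1 array. The share of all genes called at 1 week in wild-type cortex moved too, from 27.1% in the main fit to 10.6% under normexp. Within a slide each group holds 1 or 2 arrays, so those fits have fewer samples. Where an arm kept 1 array, it was taken to vary like the other groups.

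The labels do not say whether the replicate numbers pair the samples. Over 36 pairs of same-numbered arrays the deviations from the group means correlated from -0.338 to 0.445, above 0.1 in 8. Of 16 arrays, 7 were closest to an array of their own number, so pairing was neither shown nor excluded. With the replicate number as a block the counts were 35 and 3 in wild-type and 24 and 2 in BRCA1+/- cortex at 1 and 3 weeks, and 34 and 10 between the times.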
